A study of Mus musculus with 24 samples.

Results

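The genes described here are the heat shock proteins and the DnaJ co-chaperones of mouse quadriceps muscle. They were taken by name from the array annotation: every probe set assigned to a single gene symbol that begins with Hspa, Hspb, Hspd, Hspe, Hsph or Hsp90, or with Dnaja, Dnajb or Dnajc and a number. This gave 63 genes of 14754 with a symbol of their own, 1 probe set each. Of these, 43 were bright enough to be tested (log2 intensity over 4 on at least 6 of 24 arrays), and 20 were too dim, with mean log2 intensities of 1.19 to 3.48. The dim genes are given by name only, except Hspa4l, whose values in a fit with no filter are given at the end. They were Hspa2, Hspa4l, Hspa12a, Hspa12b, Hspa14, Hspb9, Hspbap1, Dnajb3, Dnajb6, Dnajb7, Dnajb8, Dnajb13, Dnajb14, Dnajc6, Dnajc11, Dnajc16, Dnajc17, Dnajc18, Dnajc22 and Dnajc24. By family, 8 of 13 HSP70 genes were tested, 6 of 7 small heat shock genes, Hsp90b1, Hspe1, 4 of 4 Dnaja genes, 7 of 13 Dnajb genes and 15 of 22 Dnajc genes. The name pattern also took in Hspbp1, which was tested, and Hspbap1, which was not; both code for proteins that bind heat shock proteins and are not heat shock proteins themselves, and Hspb11 was counted with the small heat shock genes by its name alone. Several well-known relatives, among them Hsp90aa1, Hsp90ab1, Hspd1, Hspb1, Hsph1 and the heat shock factor Hsf1, are not analysed here, because no probe set carried their symbol alone.

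All mice were male C57BL/6J (written C56BL/6J in the labels). At 9 weeks of age they went from a standard growth diet to a low fat run-in diet for 3 weeks, and per the labels were then assigned at random to stay on the low fat diet (10% of energy as fat) or to receive a high fat diet (45%), both based on palm oil. Quadriceps was taken after 3 or 28 days, at 12 or 16 weeks of age, so the day and the age cannot be told apart. There were 6 mice in each of the 4 groups and each mouse had its own array. The mouse numbers of the 4 groups lie in separate ranges, so diet and set of animals cannot be told apart either.

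Heat shock proteins of the HSP70 family bind unfolded stretches of other proteins and release them with the help of ATP. DnaJ proteins, also called HSP40 proteins, bring clients to HSP70 and stimulate its ATPase, and each of the many DnaJ genes serves particular compartments or clients. Small heat shock proteins hold unfolded proteins without ATP and several of them are abundant in muscle, where they associate with the contractile apparatus. A subset of these genes is strongly inducible: heat, exercise, handling or damage lets heat shock factor 1 bind heat shock elements, arrays of alternating GAA and TTC units, in their promoters.

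The promoters of 4 genes that the results turn on are shown first. Hspa1a and Hspa1b are the neighbouring, near-identical genes of inducible HSP70, Hspa1l is an HSP70 relative best known from testis that lies beside Hspa1a on the opposite strand, and Dnajb1 is the inducible HSP40 that partners HSP70. Each sequence gives the 250 bases before the gene's start, 5′ to 3′ on the gene's own strand, from RefSeq on GRCm38.p6: chr17:34972157-34972406, minus strand, for Hspa1a, chr17:34959239-34959488, minus strand, for Hspa1b, chr8:83607925-83608174, plus strand, for Dnajb1, and chr17:34972453-34972702, plus strand, for Hspa1l. Capitals mark a match to a pair of inverted heat shock units (GAANNTTC or TTCNNGAA).
Hspa1a promoter: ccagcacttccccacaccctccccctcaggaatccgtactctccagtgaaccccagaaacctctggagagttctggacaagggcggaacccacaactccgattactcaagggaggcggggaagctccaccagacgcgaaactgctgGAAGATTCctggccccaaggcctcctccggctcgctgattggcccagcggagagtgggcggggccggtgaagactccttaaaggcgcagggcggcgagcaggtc
Hspa1b promoter: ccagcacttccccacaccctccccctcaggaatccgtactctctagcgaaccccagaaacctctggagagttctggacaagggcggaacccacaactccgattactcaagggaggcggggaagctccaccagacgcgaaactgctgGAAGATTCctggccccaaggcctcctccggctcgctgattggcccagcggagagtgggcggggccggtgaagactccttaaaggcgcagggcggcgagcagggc
Dnajb1 promoter: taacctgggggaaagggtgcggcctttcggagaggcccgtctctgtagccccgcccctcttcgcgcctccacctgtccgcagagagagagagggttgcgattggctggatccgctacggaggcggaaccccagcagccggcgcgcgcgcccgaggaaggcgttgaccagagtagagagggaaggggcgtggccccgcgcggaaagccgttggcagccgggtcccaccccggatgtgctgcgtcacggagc
Hspa1l promoter: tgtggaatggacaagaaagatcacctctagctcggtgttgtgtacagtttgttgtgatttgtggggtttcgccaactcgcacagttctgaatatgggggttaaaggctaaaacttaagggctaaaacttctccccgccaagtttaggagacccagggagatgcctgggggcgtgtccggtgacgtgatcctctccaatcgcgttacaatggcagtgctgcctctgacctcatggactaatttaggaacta
The Hspa1a and Hspa1b stretches were identical at 247 of 250 bases (98.8%), and both held the match GAAGATTC 97 to 104 bases before the start. The Dnajb1 and Hspa1l stretches held no match, which says only that these letters are not in the window. The starts of Hspa1a and Hspa1l were 547 bases apart.

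Both strands are covered by the motif, since each of its 2 forms reads the same on either strand; the forms can overlap each other. Of 63 member genes, 52 had a promoter entry. A match was present in the promoters of 10 of the 52: Hspa1a, Hspa1b, Hspb3, Hspb6, Hspe1, Dnaja1, Dnaja4, Dnajb4, Dnajb6 and Dnajc27. Counted over promoters, 11 of 67 member promoters (16.4%) held a match, against 12.8% of all 32851 promoters of the same length. The longer form with 3 alternating units was found in 3 of 67 member promoters (4.48%), of Hspe1, which codes for the mitochondrial co-chaperonin HSP10, and of Dnajb6. The share among all promoters was 0.466%. A match is a description of the letters and not evidence of binding.

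The inducible genes Hspa1a, Hspa1b and Dnajb1 varied most from mouse to mouse. Hspa1a and Hspa1b lie outside the rule by which genes were chosen for naming and were chosen after their values were seen. On the log2 intensity scale, Hspa1b had a lowest, median and highest level of 5.95, 7.0 and 10.51 in the low fat mice at day 3, and of 5.81, 6.77 and 7.41 in the high fat mice at day 3. At day 28 these levels were 7.88, 9.4 and 12.05 on low fat and 6.86, 10.86 and 12.00 on high fat. All but 1 of the high fat mice at day 28 lay above every high fat mouse at day 3, and the exception was replicate 6, at 6.86. On low fat, day 3 replicates 5 (10.51) and 6 (8.07) lay within the range of the day 28 mice, and the 2 groups overlapped.

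Hspa1a gave the same picture. Its lowest, median and highest log2 levels were 5.4, 6.14 and 9.60 on low fat and 4.84, 5.96 and 6.62 on high fat at day 3. At day 28 they were 7.02, 8.57 and 11.86 on low fat and 6.15, 9.87 and 10.99 on high fat. The highest and lowest mice were the same as for Hspa1b at day 28. The log2 signal of Hspa1b exceeded that of Hspa1a on 24 of 24 arrays, by 0.20 to 1.30 (median 0.88), and because the genes are near-identical their probes may read each other's RNA, so the pair is best taken as a single measurement.

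Dnajb1 was high in a single group, the high fat mice at day 28. In low fat mice at day 3 its lowest, median and highest log2 levels were 4.26, 5.11 and 6.71. In high fat mice at day 3 they were 5.12, 5.23 and 5.61, the tightest of the 4 groups. At day 28 they were 5.09, 5.89 and 6.93 on low fat and 5.15, 8.16 and 9.69 on high fat. At day 28, 4 of 6 high fat mice lay above every low fat mouse, replicate 2 lay within the low fat range at 6.77, and replicate 6, at 5.15, lay near the lowest.

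**Figure D1:**
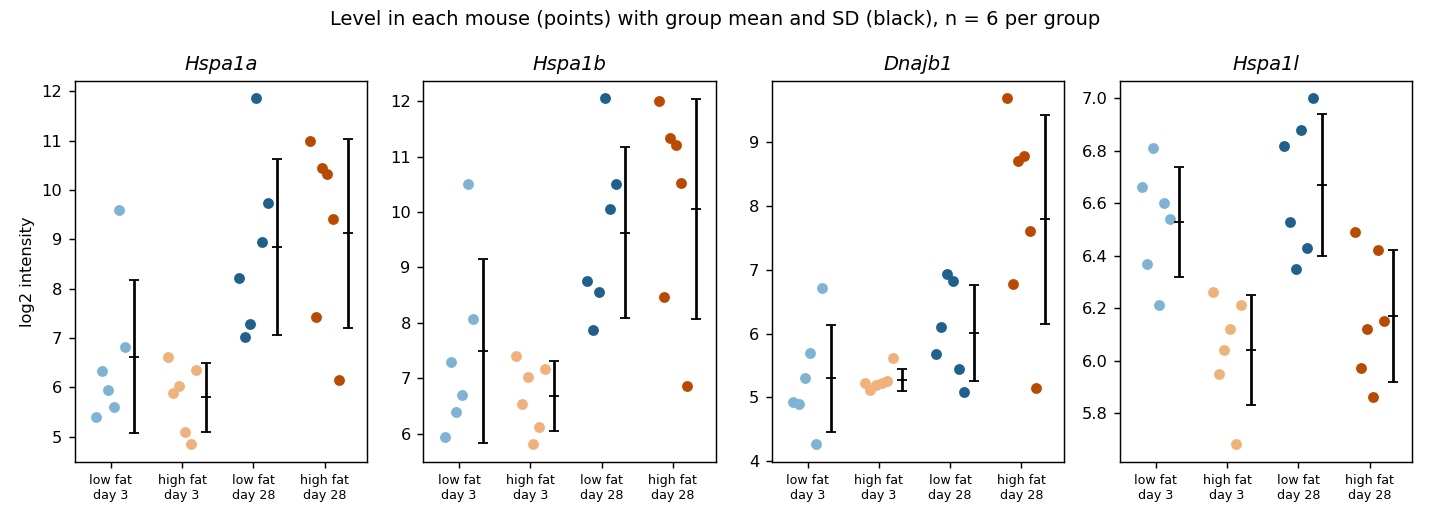
Log2 intensity of Hspa1a, Hspa1b, Dnajb1 and Hspa1l (a panel each, with its own vertical scale) by diet and day. Points are mice in replicate order and black marks are the mean and SD of 6 mice. Hspa1a and Hspa1b are high in most day 28 mice of both diets, Dnajb1 is high in 4 high fat mice at day 28 (8.71, 8.78, 9.69 and 7.61), and Hspa1l is lower on high fat at both days.

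The difference between day 28 and day 3 was tested within each diet with limma over all 24 arrays, with Benjamini-Hochberg adjustment over 5793 genes and a call at an adjusted p under 0.05. On high fat, Dnajb1 was higher at day 28 by 2.52 ± 0.54 on the log2 scale (SE, adjusted p = 0.0444), a 5.72-fold difference, and was the only member called of 43, where 0.293% of all genes were called higher. Hspa1b and Hspa1a differed by more, 3.38 ± 0.83 and 3.32 ± 0.85 (SE), or 10.4-fold and 10.0-fold, the largest and second largest differences of all genes tested, but their spread left them short of the threshold (limma adjusted p = 0.0653 and 0.0745). Without high fat day 28 replicate 6 both passed it, at 16.2-fold and adjusted p = 0.0303 for Hspa1b and 15.1-fold and 0.0327 for Hspa1a. Without low fat day 3 replicate 5, whose array enters only through the shared spread, they also passed, at 0.0379 and 0.0444. Hspa1a passed without low fat day 28 replicate 4 too, at 0.0490. With array weights both passed (0.0163 for Hspa1b and 0.0195 for Hspa1a), and with a stricter filter Hspa1b did (0.0478). The Dnajb1 call was lost with no filter on dim genes (adjusted p = 0.0653) and with only the arrays compared (0.0948). It was also lost in 13 of the 24 fits that each left out an array, with adjusted p-values of 0.0507 to 0.1: low fat replicates 3 and 4 and high fat replicates 1, 3, 4, 5 and 6 of day 3, and low fat replicates 2 and 3 and high fat replicates 1, 3, 4 and 5 of day 28.

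On low fat, none of the 43 members was called between the days, against 0.345% of all genes. At an unadjusted p under 0.05 there were 12 members (27.9%), against 16.6% of all genes. Hspa1a was higher at day 28 by 2.23 ± 0.85 and Hspa1b by 2.15 ± 0.83 on the log2 scale (SE, limma adjusted p = 0.196 and 0.199), 4.68-fold and 4.43-fold, at ranks 3 and 4 among all genes. These folds were 3.07 and 3.16 without low fat day 28 replicate 4, and 7.06 and 6.73 without low fat day 3 replicate 5. Dnajb1 differed by 0.71 ± 0.54 (adjusted p = 0.545). Dnaja1, the farnesylated cytosolic DnaJ that works with HSP70, differed by 0.66 ± 0.19 on low fat (adjusted p = 0.117) and 0.41 ± 0.19 on high fat (adjusted p = 0.328). Its log2 level was 7.74 to 8.28 over the 12 day 3 mice and 8.05 to 9.78 over the 12 day 28 mice. The median day difference over the members was 0.05 on low fat and 0.06 on high fat, beside 0.01 over all genes on either diet.

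**Figure D2:**
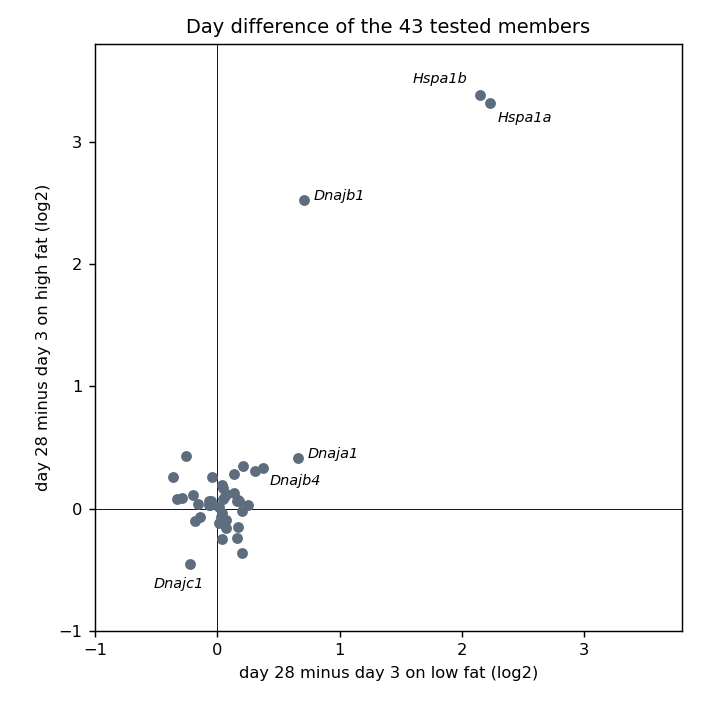
Log2 difference between day 28 and day 3 on low fat (horizontal) and on high fat (vertical) for each of the 43 tested members. Hspa1a and Hspa1b lie far from 0 on both axes, Dnajb1 mainly on the vertical axis (0.71 and 2.52), and the other members lie within 0.7 of 0.

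The diet difference at day 28 was called for 3 of 43 members (7.0%), where 12.5% of all genes were called. Dnajb1 and Dnajc7 were higher on high fat, in a background of 5.35% called higher, and Hspa1l was lower, in a background of 7.18% called lower. Of all calls, 310 were higher and 416 lower, a split that turned to 400 and 361 with quantile normalization. At an unadjusted p under 0.05 there were 11 members (25.6%), against 24.9% of all genes. The median difference was -0.02 over the members and 0.01 over all genes.

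The Dnajb1 difference was 1.78 ± 0.54 on the log2 scale (SE, limma adjusted p = 0.0314), 3.43-fold, at rank 16 among increases and rank 71 by size in either direction. It was lost in a fit of only the arrays compared (adjusted p = 0.0980) and without any of low fat replicates 1, 5 and 6 (0.0606, 0.0714 and 0.0788) or high fat replicates 1, 3 and 4 (0.0907, 0.0757 and 0.0795) of day 28. At day 3 the Dnajb1 difference was -0.03 ± 0.54 (adjusted p = 0.981). The day 28 diet effect exceeded that of day 3 by 1.81 ± 0.77, the largest increase of all genes but rank 32 by size in either direction, and did not pass the test of the interaction (adjusted p = 0.208). Hspa1a and Hspa1b showed no call for diet at either day: at day 3 the high fat minus low fat differences were -0.81 ± 0.85 and -0.81 ± 0.83 (limma adjusted p = 0.556 and 0.550), and at day 28 they were 0.28 ± 0.85 and 0.43 ± 0.83 (0.879 and 0.808).

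At day 28 the distance between Dnajb1 and Hspa1b differed from mouse to mouse more on low fat than on high fat. At day 3 the wider low fat range rested on replicate 5 alone. These spreads were not tested. In the high fat mice at day 28 the log2 signal of Dnajb1 minus that of Hspa1b stayed between -2.91 and -1.70. In the low fat mice it ran from -5.42 to -1.64 at day 28. At day 3 it ran from -6.25, in replicate 5, to -1.0 on low fat, with a median of -1.23. In the high fat mice at day 3 it ran from -2.18 to -0.59, with Dnajb1 between 5.12 and 5.61 and Hspa1b between 5.81 and 7.41. Low fat day 28 replicate 4 had the highest Hspa1b level of all 24 mice, 12.05, with Dnajb1 at 6.82, and low fat day 3 replicate 5 had Hspa1b at 10.51 with the lowest Dnajb1 level of all, 4.26. High fat day 28 replicate 1 had nearly the same Hspa1b level, 12.00, with Dnajb1 at 9.69. The slope of each gene on Dnajb1 within the groups was called for none of 42 members and for 0.0% of the other genes; Hspa1b (slope 0.71 ± 0.29), Hspa1a (0.66 ± 0.30) and Dnaja1 (0.16 ± 0.07) were the members with an unadjusted p under 0.05 (limma, SE), 7.14% of 42 against 7.98% of all genes.

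**Figure D3:**
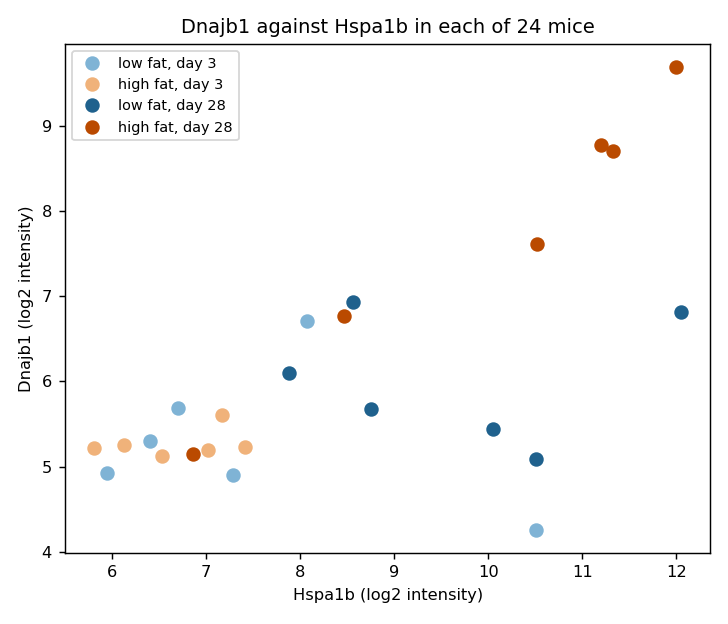
Log2 intensity of Hspa1b (horizontal) and Dnajb1 (vertical) in each of 24 mice, coloured by diet and day. High fat day 28 mice lie along a rising line up to 12.00 and 9.69, while low fat mice with Hspa1b between 10.05 and 12.05 have Dnajb1 between 4.26 and 6.82.

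Hspa1l was the only member called for diet at both days, lower on high fat each time. Its lowest, median and highest log2 levels at day 3 were 6.21, 6.57 and 6.81 on low fat and 5.68, 6.08 and 6.26 on high fat. At day 28 they were 6.35, 6.67 and 7.0 on low fat and 5.86, 6.14 and 6.49 on high fat. At day 3, 5 of 6 high fat mice lay below every low fat mouse, and at day 28, 4 of 6 did. The high fat minus low fat difference was -0.49 ± 0.13 at day 3 (SE, limma adjusted p = 0.0148) and -0.50 ± 0.13 at day 28 (adjusted p = 0.0131), or 1.40-fold and 1.41-fold lower. Both calls held in every alternative fit that was run and without each array in turn, with adjusted p-values of at most 0.0399. The interaction was -0.01 ± 0.19 (adjusted p = 0.983) and changed sign between fits. At day 28 its neighbours Hspa1a and Hspa1b did not follow this order: their highest levels on high fat exceeded all but 1 of the low fat mice. At day 3 their differences had the same sign as that of Hspa1l, -0.81 ± 0.85 and -0.81 ± 0.83 (SE), and were not called (limma adjusted p = 0.556 and 0.550). Another probe set reads Msh5 and Hspa1l together and was not used.

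At day 3 the diet difference was called for 6 of 43 members (14%), beside 14.9% of all genes, so the share was close to the background. Hspa1l, Dnajb12, Dnajb2 and Dnajc13 were lower on high fat, where 6.87% of all genes were lower. Dnajc4 and Dnajc15 were higher, where 7.99% were higher. The median was -0.03 over the members and -0.01 over all genes.

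Dnajb12, a DnaJ protein anchored in the endoplasmic reticulum membrane, showed the clearest separation of the 6 members called at day 3. The share of all genes without overlap was not counted. Its lowest, median and highest log2 levels at day 3 were 5.09, 5.23 and 5.35 on low fat and 4.23, 4.57 and 4.88 on high fat, and no mouse of a diet reached the other diet's range. The difference was -0.64 ± 0.14 (SE, limma adjusted p = 0.00387). Its mean log2 level over all mice was 4.88, near the filter at 4. With an offset of 16 added to the intensities the difference was -0.42 (limma adjusted p = 0.00302). At day 28 the ranges were 4.31 to 5.25 and 4.36 to 5.18 and lay on top of each other, with a difference of -0.03 ± 0.14 (adjusted p = 0.927). The interaction was 0.61 ± 0.20 and missed the threshold (adjusted p = 0.105).

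Dnajb2, a DnaJ protein with ubiquitin-binding motifs that is known from neurons and muscle, had lowest, median and highest log2 levels at day 3 of 7.46, 7.70 and 7.94 on low fat and 6.53, 7.33 and 7.59 on high fat. Here 5 of 6 high fat mice lay below every low fat mouse. The difference was -0.50 ± 0.15 (SE, limma adjusted p = 0.0286). It was lost in the fit of only the arrays compared (0.0590), and without low fat day 3 replicate 1 or 5 (0.0545 and 0.0652) or high fat day 3 replicate 1 or 6 (0.0512 and 0.0678). At day 28 the difference had the same sign, -0.37 ± 0.15 (adjusted p = 0.129).

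The Dnajc genes called at day 3 moved by small amounts. Dnajc13, an endosomal protein, had log2 levels of 5.37 to 5.72 (median 5.52) on low fat and 5.07 to 5.45 (median 5.37) on high fat, a difference of -0.22 ± 0.07 (SE, limma adjusted p = 0.0308). Dnajc4 had levels of 6.32 to 6.71 (median 6.55) on low fat and 6.66 to 6.92 (median 6.78) on high fat, with 5 of 6 high fat mice above every low fat mouse, and a difference of 0.25 ± 0.07 (adjusted p = 0.0248). Dnajc15, a DnaJ protein of the inner mitochondrial membrane, had levels of 9.86 to 10.08 (median 9.92) on low fat and 10.03 to 10.25 (median 10.11) on high fat, a difference of 0.20 ± 0.06 (adjusted p = 0.0293).

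Each of these calls lost significance in some fits. In the fit of only the arrays compared, the limma adjusted p was 0.111 for Dnajc13, 0.0680 for Dnajc4 and 0.0706 for Dnajc15, and with no filter on dim genes it was 0.0634, 0.0508 and 0.0626. Dnajc13 was also lost with quantile normalization (0.0568). Dnajc13 was lost without low fat day 3 replicates 3 or 5 or high fat day 3 replicates 2 or 3 (0.0501 to 0.0783), Dnajc4 without low fat day 3 replicates 1 or 2 or high fat day 3 replicate 2 (0.0513 to 0.0656), and Dnajc15 without low fat day 3 replicates 3 or 6 or high fat day 3 replicates 1, 5 or 6 (0.0502 to 0.0682).

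Dnajc15 had opposite signs at the 2 days. At day 28 its level was 9.97 to 10.26 on low fat (median 10.08) and 9.91 to 10.10 on high fat (median 9.96), a difference of -0.12 ± 0.06 (SE, limma adjusted p = 0.218). The interaction was -0.32 ± 0.09 with an adjusted p of 0.0578, the nearest of all members to the threshold. None of the 43 members was called for the interaction, against 1.38% of all genes. At an unadjusted p under 0.05 there were 11 members (25.6%), against 18.8% of all genes. Dnajc15 was called for it in 6 of the 7 other processings, 1 of them the replicate block, and not with no filter. Of the 24 fits that left out an array, it was called in 5.

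Dnajc7, a co-chaperone that binds both HSP70 and HSP90, was the remaining gene called at day 28. Its lowest, median and highest log2 levels at day 28 were 7.46, 7.63 and 7.92 on low fat and 7.82, 7.89 and 8.07 on high fat. The ranges overlapped, with 2 of 6 high fat mice above every low fat mouse. The difference was 0.25 ± 0.08 (SE, limma adjusted p = 0.0438) at day 28 and 0.17 ± 0.08 (adjusted p = 0.159) at day 3. The day 28 call was lost with no filter (adjusted p = 0.0786), array weights (0.0717) and only the arrays compared (0.0690). It was also lost in 13 of the 24 fits that left out an array (up to 0.116): low fat replicates 1 and 4 and high fat replicates 1, 2 and 6 of day 3, and low fat replicates 1, 4, 5 and 6 and high fat replicates 2, 3, 4 and 5 of day 28.

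**Figure D4:**
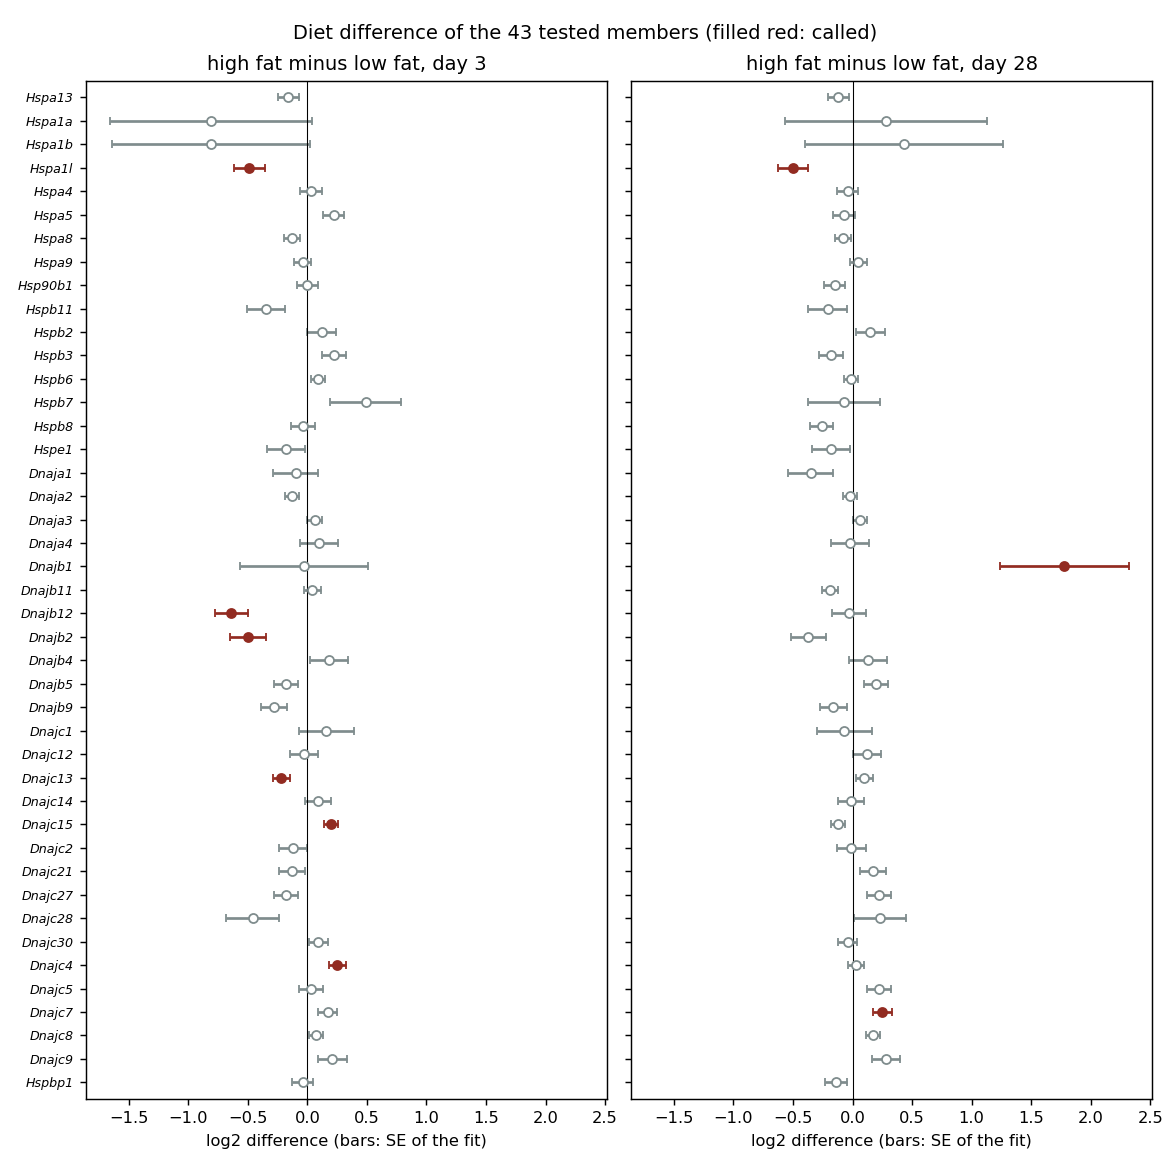
High fat minus low fat difference (log2, bars are the SE of the fit) of the 43 tested members at day 3 and at day 28, ordered by family; filled red points passed the limma test. At day 3 the 6 called members differ by 0.64 or less in size, and at day 28 Dnajb1, at 1.78, stands apart from the rest.

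Apart from Hspa1l, no tested member of the HSP70, HSP90 and HSP10 families was called as reported. Hspa8, the constitutive cytosolic HSP70, had a group mean log2 level of 13.01 ± 0.13 to 13.20 ± 0.12 (SD, n = 6) and a diet difference of -0.13 ± 0.07 at day 3 (SE, limma adjusted p = 0.213) and -0.08 ± 0.07 at day 28 (0.523). With quantile normalization the day 3 difference of Hspa8 was -0.23 ± 0.06 and was called (adjusted p = 0.00661). Hspa5, the HSP70 of the endoplasmic reticulum (BiP), had log2 levels of 9.71 to 10.06 on low fat and 9.93 to 10.29 on high fat at day 3, a difference of 0.22 ± 0.09 (adjusted p = 0.0932), and -0.07 ± 0.09 at day 28 (0.662). Hspa9, the mitochondrial HSP70, differed by -0.04 ± 0.07 at day 3 and 0.05 ± 0.07 at day 28 (0.704 and 0.716). Hsp90b1, the HSP90 of the endoplasmic reticulum, differed by -0.15 ± 0.09 at day 28 (0.304). Hspe1 differed by -0.18 ± 0.16 at both days (0.484 and 0.537).

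Of the 6 small heat shock genes tested, none was called in any of the 5 comparisons. Hspb6 had log2 levels of 12.04 to 12.40 over all 24 mice. Hspb7, a cardiac and skeletal muscle chaperone, ran from 8.15 to 10.30, with a day 3 diet difference of 0.49 ± 0.30 (SE, limma adjusted p = 0.280). Hspb8, the partner of the co-chaperone Bag3, had lowest, median and highest levels at day 28 of 10.53, 10.69 and 11.26 on low fat and 10.41, 10.50 and 10.61 on high fat, with 5 of 6 high fat mice below every low fat mouse. Its difference was -0.26 ± 0.10 (adjusted p = 0.0808), and it passed only in the fit without low fat day 28 replicate 5 (0.0490).

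Of the 4 Dnaja genes, none was called in these comparisons. Dnaja2, a cytosolic partner of HSP70, differed by diet by -0.13 ± 0.06 at day 3 (limma adjusted p = 0.146), and Dnaja4 had its highest level, 9.11, in low fat day 28 replicate 4. Among the remaining named Dnajb genes, Dnajb9, a DnaJ protein of the endoplasmic reticulum, differed by diet by -0.28 ± 0.11 at day 3 (limma adjusted p = 0.0954) and -0.16 ± 0.11 at day 28 (0.415). Dnajb5 differed by -0.18 ± 0.10 and 0.20 ± 0.10 (0.229 and 0.200) and Dnajb4, a close relative of Dnajb1, by 0.18 ± 0.16 and 0.13 ± 0.16 (0.488 and 0.661). Dnajc21, which takes part in ribosome maturation, and Dnajc30, a mitochondrial protein, had log2 levels of 8.01 to 8.80 and 7.76 to 8.41 over all 24 mice.

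Low fat day 28 replicate 4 had the highest level of all 24 mice for 12 of the 43 members (27.9%), where it was highest for 4.71% of all 5793 genes. These were Hspa1a, Hspa1b, Hspa4, Hspa8, Hspa13, Hsp90b1, Hspb8, Hspe1, Dnaja1, Dnaja4, Dnajb2 and Dnajb4, named because of that mouse's values. Its Dnaja1 level was 9.78 against a median of 8.44 in the other 5 mice of the group, Dnajb4 9.63 against 8.42 and Hspe1 8.04 against 7.55. Dnajb1 was not among them (6.82 against 5.68). Over the 24 mice, high fat day 3 replicate 5 held the most genes at their highest level (11.4%), and it held 2 of the members.

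Genes of the other lists were mixed in the same mouse. Of 9 immediate early genes, 7 lay above the median of the other 5 mice and 2 were the highest of 24, with differences from -0.46 (Ier3) to 5.61 (Atf3). Of 24 co-chaperones, 16 lay above that median at 2 decimals and 9 were the highest of 24, with differences from -0.28 (Bag2) to 1.23 (Bag3). Atf3, a stress-induced transcription factor, was at 9.62 against a median of 4.01 in the other 5, the largest excess of all genes, and it lay between 3.04 and 4.95 in the other 23 mice. Bag3 was at 10.28 against 9.04, and Jun at 8.81 against 7.74. The mouse's mean level over the slow fibre markers was 3.64, within its group's range of 3.06 to 7.74. Of these 6 genes, 0 lay above the median of the other 5 mice (differences of -3.25 to -1.42). Over the adipocyte markers the mean was 8.51, within 8.0 to 9.42, and 0 of 4 tested genes lay above that median. Macrophage and fibroblast genes lay above it in 1 of 5 cases each. Endothelial genes lay above it in 4 of 4 (0.05 to 0.75), and their mean, 6.2, was the highest of the group. The mouse's mean over the 11 immediate early genes with a probe set, 9 of them tested, was 6.16, the highest of its group. Of the 9 tested members with a heat shock match in their promoter, 6 were highest in this mouse. Of the 26 with an entry but no match, 4 were, and of the 8 with no entry, 2 were. Hspa1a and Hspa1b, near-identical in promoter and best taken as a single measurement, were counted separately among the 6 with a match. These counts describe a mouse picked by its values and were not tested, and the same split was not counted over all genes.

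**Figure D5:**
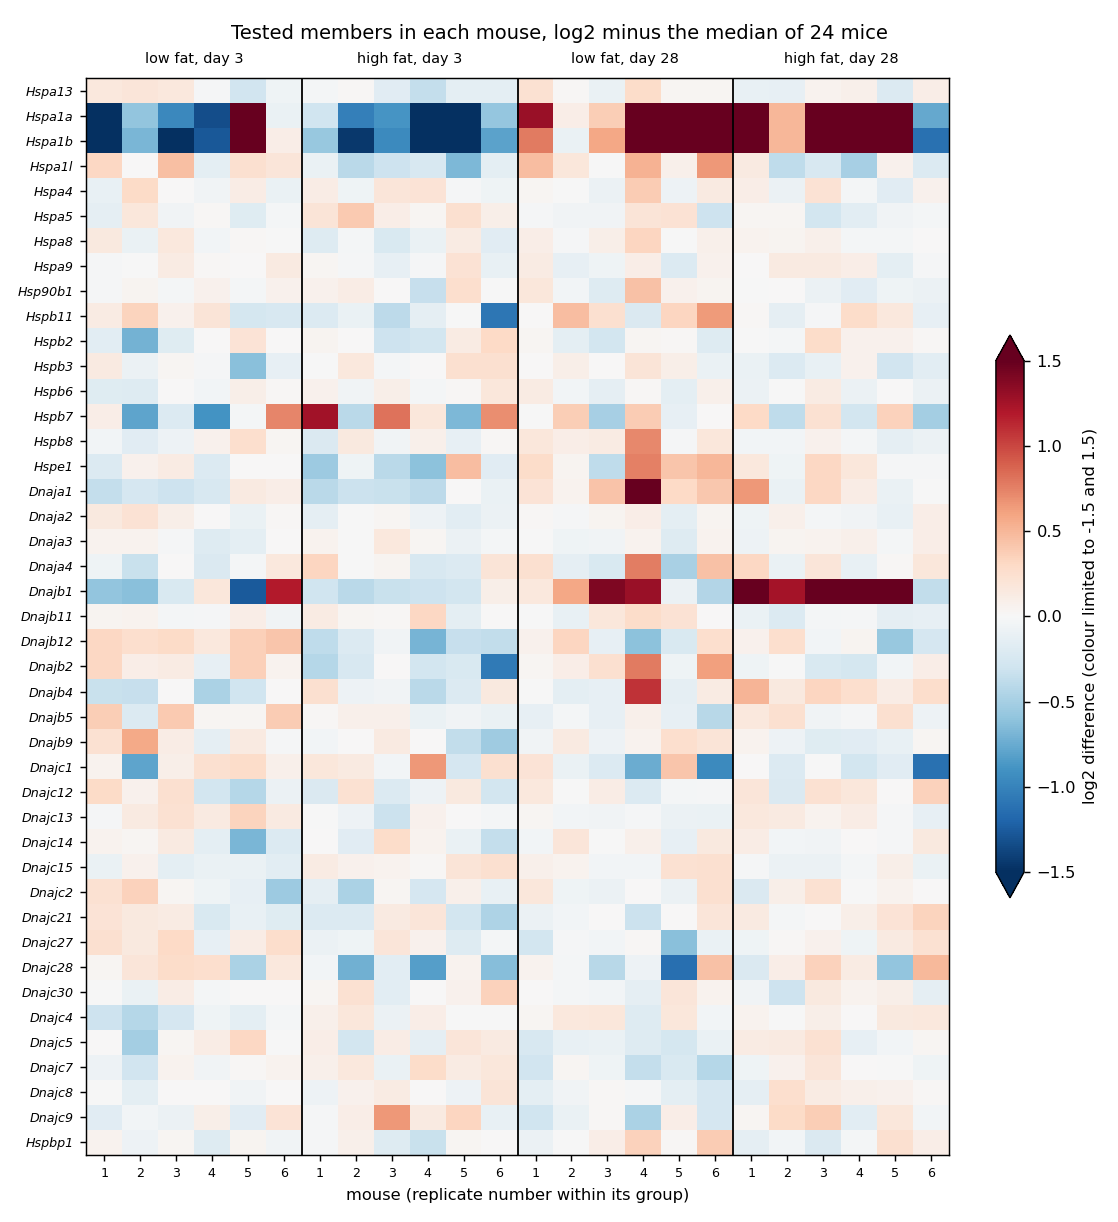
Each tested member (rows, by family) in each of the 24 mice (columns, by group and replicate number), as the log2 level minus the median over all mice; the colour scale ends at -1.5 and 1.5. The rows of Hspa1a, Hspa1b and Dnajb1 hold the widest range, and low fat day 28 replicate 4 is red in many heat shock rows.

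The other genes of the chaperone network were counted from lists drawn up with earlier results of these data known. Of 24 tested co-chaperones of HSP70 and HSP90, 5 were lower and none higher on high fat at day 3, and 5 were lower and 1 higher at day 28. Of all genes, 6.87% were lower and 7.99% higher at day 3, and 7.18% and 5.35% at day 28. Their medians were 0.00 and -0.04, beside -0.01 and 0.01 over all genes. Fkbp5, an HSP90-binding immunophilin that glucocorticoids induce, differed by -0.89 ± 0.30 at day 3 and -0.99 ± 0.30 at day 28 (SE, limma adjusted p = 0.0494 and 0.0314). Unc45b, the chaperone of muscle myosin, differed by -0.43 ± 0.10 and -0.32 ± 0.10 (0.00480 and 0.0337). St13, which stabilises HSP70 with its clients, differed by -0.40 ± 0.10 at day 3 and -0.31 ± 0.10 at day 28 (0.0106 and 0.0449). Ahsa1, the activator of the HSP90 ATPase, differed by -0.26 ± 0.08 and -0.32 ± 0.08 (0.0329 and 0.0102). Cacybp differed by -0.39 ± 0.11 at day 28 (0.0173) and Sugt1 by -0.36 ± 0.07 at day 3 (0.00144).

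Of 13 tested genes of the endoplasmic reticulum chaperone and unfolded protein response list, 3 were higher and none lower on high fat at day 3, and 1 was higher and 2 lower at day 28, beside the same shares of all genes (7.99% higher and 6.87% lower at day 3, 5.35% and 7.18% at day 28). Ddit3, the stress factor CHOP, was higher at both days, by 0.91 ± 0.15 and 0.56 ± 0.15 (SE, limma adjusted p = 0.000256 and 0.0128). Manf and P4hb were higher at day 3 by 0.48 ± 0.13 and 0.24 ± 0.07 (0.0186 and 0.0194). Xbp1 and Pdia6 differed at day 28 by -0.39 ± 0.07 and -0.40 ± 0.12 (0.000835 and 0.0241). Of 12 genes of the TRiC chaperonin and prefoldin, Pfdn5 was higher at day 3 by 0.30 ± 0.08 (0.0189) and none was called at day 28. Of 7 mitochondrial chaperone and protease genes, Clpx was higher at day 28 by 0.35 ± 0.10 (0.0225). The small heat shock protein relative Cryab, the tested gene of the crystallin list, was not called (-0.28 ± 0.13 at day 28, 0.173), nor was Hsbp1, the tested gene of the heat shock factor list. No gene of these 6 lists was called between days or for the interaction.

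Markers of other cells and fibres moved with the diet. The mean log2 level of 6 slow fibre genes was 3.09 to 7.34 on low fat and 8.40 to 11.46 on high fat at day 3, and 3.06 to 7.74 and 8.77 to 9.94 at day 28; all 6 genes were called higher at both days. Their part in the diet differences above was not tested by the group comparisons. Within groups, the slope on the slow fibre mean was called for none of the 43 members, against 0.484% of all genes, and Hspb7 (0.20 ± 0.07), Dnajb5 (0.06 ± 0.02) and Hspb8 (-0.05 ± 0.02) had an unadjusted p under 0.05 (limma, SE), 6.98% of the members against 10.3% of all genes. The adipocyte mean was taken over 5 genes, 4 of them tested. It was 6.46 to 8.66 on low fat and 5.74 to 8.86 on high fat at day 3. At day 28 it was 8.0 to 9.42 and 5.58 to 7.05. Macrophage genes were lower on high fat in 1 of 5 cases at day 3 and 5 of 5 at day 28, and endothelial genes were higher in 4 of 4 at day 3 and none at day 28. Fibroblast genes were higher in 2 of 5 at day 3, Col1a1 by 1.22 ± 0.37 and Col1a2 by 0.89 ± 0.25 (adjusted p = 0.0287 and 0.0204), and none was called at day 28. Of 9 immediate early genes, which answer handling and damage within minutes, none was called between days. On high fat, Ier2 was higher by 0.51 ± 0.13 and Ier3 differed by -0.77 ± 0.20 at day 3 (adjusted p = 0.0101 and 0.0134), and Egr1 was higher by 1.82 ± 0.45 at day 28 (0.00887). Ier3 was also called for the interaction, at 1.25 ± 0.29 (0.0352). In whole muscle, fewer cells of a type and less RNA per cell cannot be told apart.

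Any pair of arrays correlated at 0.978 to 0.995 over all probe sets, and none held identical values. The quality of the RNA and of the arrays was not measured beyond this. The mean of 5 general skeletal muscle markers lay between 12.64 and 12.87 but differed by diet. At day 3 it was 12.64 to 12.80 on low fat and 12.71 to 12.87 on high fat. At day 28 it was 12.66 to 12.74 and 12.84 to 12.87, without overlap. Of these markers, Mb was called higher on high fat, by 0.42 ± 0.08 at day 3 and 0.40 ± 0.08 at day 28 (SE, limma adjusted p = 0.000958 and 0.00119). The labels' extraction protocol for low fat day 3 replicate 1 does not name the DNase step named for the others.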

How the data were processed

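RNA of 24 quadriceps muscles was measured on Affymetrix mouse arrays, 1 array per mouse, 6 mice per group, with groups taken from the labels. The deposited values are intensities on a linear scale, computed by the authors with GCRMA (background correction, normalization between arrays and summary of each probe set), per the submitters' processing notes; the version and the genome build are not given in the sources used here. GCRMA estimates the background of dim probe sets, so the size of their differences depends on it, and the number of arrays limits the precision.

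Of 16361 probe sets, 14771 carried 1 gene symbol, 589 several and 1001 none in the platform annotation. Where a gene had several probe sets, the one of highest mean level was used, and the members had 1 each. The symbols of all 63 members equalled those of RefSeq. Log2 was taken with no offset. A gene was tested if its log2 value exceeded 4 on at least 6 arrays. The package limma (version 3.58.1, R 4.3.3) was used with eBayes after lmFit, and was tested on simulated data; its model held 4 group means over all arrays, with 2-sided tests and Benjamini-Hochberg adjustment over 5793 genes. Slopes on Dnajb1 and on the slow fibre mean were fitted with the group means. Members named are those called in a group comparison, Dnajb1, and the 3 of highest mean level in each family; other genes are at most the 4 called genes of largest difference per list and diet comparison. Hspa1a, Hspa1b, Hspa4l, the members highest in a single mouse, Cryab, Hsbp1, Atf3, Bag3 and Jun fall outside this rule and were named after their values were seen. The members and lists were chosen with earlier results of these data known.

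The deviations of same-numbered mice correlated at -0.384 to 0.537 over 36 pairs, 15 of them over 0.1. Pairs of numbers 1 and 5 were all positive and those of the other numbers mixed, so the numbers were not taken to pair samples. Alternatives were quantile normalization, an offset of 16, no filter, a stricter filter, a replicate block, array weights, a trend in the spread, only the arrays compared, and leaving out each array. Leaving out arrays other than low fat day 3 replicate 1 was added after seeing the data.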

Additional observations from a re-analysis of the deposited data

Results flagged for a closer look

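In each group of 6 mice, the highest and lowest mouse of the 26 named members was compared with the nearest of the others by Dixon's criterion; chance marks about 1 in 20 of the 104 groups, and 8 were marked. In low fat day 28 replicate 4, 4 members stood above the next mouse: Hspa8 at 13.43 (next 13.20), Hspb8 at 11.26 (next 10.72), Dnaja1 at 9.78 (next 8.57) and Dnajb4 at 9.63 (next 8.67), all as log2 intensity. Hspa1a stood out in low fat day 3 replicate 5, at 9.60 (next 6.82). Dnajb1 stood out in high fat day 3 replicate 6, at 5.61 (next 5.25), in a group whose other mice lay between 5.12 and 5.25. Dnajc13 was low in high fat day 3 replicate 3, at 5.07 (next 5.31), and Dnajc15 was high in low fat day 3 replicate 2, at 10.08 (next 9.92). The causes were not tested.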

How the results depend on the processing

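Counts of called members changed as follows. At day 3 they fell from 6 to 3 with no filter and to 2 with only the arrays compared. For the interaction they rose from 0 to 1 with quantile normalization, the offset, the stricter filter, the replicate block and the trend, and to 2 with array weights; Dnajc15 was called in each of these and Dnajc13 with array weights. Between days, 1 member was called on low fat with array weights (Dnajc4), and on high fat 0 with no filter or only the arrays compared, 2 with the stricter filter and 3 with array weights. Leaving out each array gave 4 to 6 at day 3, 1 to 4 at day 28 (1 without low fat replicates 1 or 6 or high fat replicates 3 or 4 of that day), 0 to 1 for the interaction, 0 on low fat and 0 to 3 on high fat between days, and 0 for both slopes. With the replicate block, where the numbers do not pair the mice, 5 members were called at day 3 (Dnajb2 was lost, adjusted p = 0.0553) and 2 at day 28 (Dnajc7 was lost, 0.0736); 4 of 24 arrays correlated best with their own number. The interaction of Hspa1l was 0.01 with quantile normalization, 0.00 with array weights and -0.08 to 0.06 with an array left out. Hspa1l at both days kept its call in all these fits, and Dnajb12 at day 3 in all that tested it (the stricter filter did not). The count at day 28 stayed at 3 with no filter, where Dnajc7 was lost and Hspa4l was called lower on high fat. The Hspa4l difference was -0.99 ± 0.21 (SE, limma adjusted p = 0.00462). Hspa4l exceeded a log2 of 4 on only 3 of 24 arrays and was not tested in the main fit. Over all genes, calls fell from 861 to 507 at day 3 with only the arrays compared. They went from 80 to 6 (no filter), 176 (replicate block) and 278 (array weights) for the interaction. Between days they went from 20 to 40 (quantile), 3 (no filter), 32 (replicate block), 132 (array weights) and 0 (only the arrays compared) on low fat, and from 32 to 9 (no filter) and 106 (array weights) on high fat. For the slow fibre slope they went from 28 to 17 (offset), 18 (stricter filter), 10 (replicate block) and 46 (array weights). The causes of these changes were not tested. Dim genes are limited by the signal over background.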
